A study of Canis lupus familiaris with 28 samples.

Results

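*RAC2*, *NCF4*, *CSF2RB*, *IL2RB* and *LGALS1* encode proteins of the phagocyte oxidase, receptors for blood cell cytokines and a galectin. They were described in canine histiocytic sarcoma (HS), a cancer of macrophage and dendritic cell lineages that is frequent in the Bernese Mountain Dog (BMD). The genes were chosen by symbol and were all paired with an Ensembl identifier in the supplementary expression tables of the study, so all 5 of the 5 named genes were found among the 32704 identifiers counted. The identifiers are ENSCAFG00000001508 (*RAC2*), ENSCAFG00000001522 (*NCF4*), ENSCAFG00000001519 (*CSF2RB*), ENSCAFG00000001511 (*IL2RB*) and ENSCAFG00000001487 (*LGALS1*).

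The phagocyte NADPH oxidase is an enzyme complex that neutrophils and macrophages assemble on their membranes to make superoxide against microbes. *RAC2* encodes the small GTPase of blood cells that switches this complex on and also drives cell movement, and *NCF4* encodes p40phox, a cytosolic subunit that binds a membrane lipid and holds the complex at the phagosome. *CSF2RB* encodes the beta chain shared by the receptors of GM-CSF, interleukin-3 and interleukin-5, which sustain myeloid cells. *IL2RB* encodes the beta chain of the interleukin-2 and interleukin-15 receptors, best known from T cells and natural killer (NK) cells. *LGALS1* encodes galectin-1, a secreted lectin that binds galactose on cell surfaces and is made by many stromal, myeloid and tumor cells.

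RNA of frozen tumors was measured in 18 BMDs, of which 15 tumors were labelled HS and 3 were labelled hemophagocytic histiocytic sarcoma (HHS), a subtype in which the tumor cells take up red blood cells. The tumors came from lung (6), liver (4), spleen (2), thorax or a thoracic mass (3), leg or shoulder (2) and lymph node (1). Controls were blood of 3 unaffected BMDs and 1 library each of spleen, lung and liver of unaffected German Shepherd Dogs (GSDs). A second table held the HS cell lines BD and OD, from BMDs, and PJ, from a Rottweiler, each a single line from 1 dog, together with DC3F9, unstimulated dendritic cells grown from blood monocytes of 1 unaffected mongrel with GM-CSF and interleukin-4.

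Levels are given as CPM, the usual scaling of the counts of a gene by the total of its library. Libraries held 99701394 to 171815073 counts per tumor, 133524755 to 171816341 per blood, spleen or lung control, 180801439 in the liver control and 82007857 to 131518875 per cell library, so 3 counts equal 0.0166 to 0.0366 CPM. The liver control had a TMM factor (edgeR's correction for RNA composition) of 0.356, far from those of the other libraries. It was left out of the tests, as the study left out 1 control. Flow cell names in the labels separate blood from all tumors and organ controls. Tissue and flow cell therefore cannot be told apart in any comparison with blood. Tumors and blood were of BMDs and the organ controls of GSDs. Neither disease nor tissue can therefore be told apart from breed in any comparison with the organ controls. Marker genes were summed in each tissue: 7 hepatocyte genes summed to 7608 CPM in the liver control, 3 endothelial genes to 718 CPM in the lung control, 3 red cell and platelet genes to 47.9 to 115 CPM in blood, and 9 myeloid and antigen presentation genes to 1901 to 32490 CPM in the tumors, 13110 to 17670 CPM in blood and 11120 CPM in the spleen control. The spleen tumor HS51 carried red cell and platelet markers at 44.9 CPM, against at most 2.41 CPM in the other tumors, and results were also computed without it.

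*RAC2*, *NCF4*, *CSF2RB* and *IL2RB* were lower in tumors than in blood by edgeR's quasi-likelihood test (absolute log2FC above 1.5 and Benjamini-Hochberg adjusted p under 0.05). By CPM, all 18 tumors lay below all 3 blood controls for each of them. After TMM scaling, the tumor HS52 was above blood control 3 for *CSF2RB*. Of the 21958 genes tested, 8.79% were called lower than in blood, and 15.5% had tumors and blood apart by CPM in either direction. With spleen and lung as the controls, 1 of the 5 genes, *LGALS1*, was called higher, where 2.1% of all genes were. Between blood and the pair of organs, *RAC2*, *NCF4* and *CSF2RB* were called higher in blood, where 2.9% of all genes were. Against the 5 controls as 1 group, at the stricter adjusted p under 0.0005 of the study, 0 of the 5 genes were called, where 2.77% of 19430 genes were. At an unadjusted p under 0.05, that comparison held 7718 genes. At the same cutoffs DESeq2 called far more genes, 1721 against 539 by edgeR. They included 2 of the 5 genes, *RAC2* and *IL2RB*, both lower. These comparisons share the same tumors and controls and are not independent of each other.

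**Figure D1:**
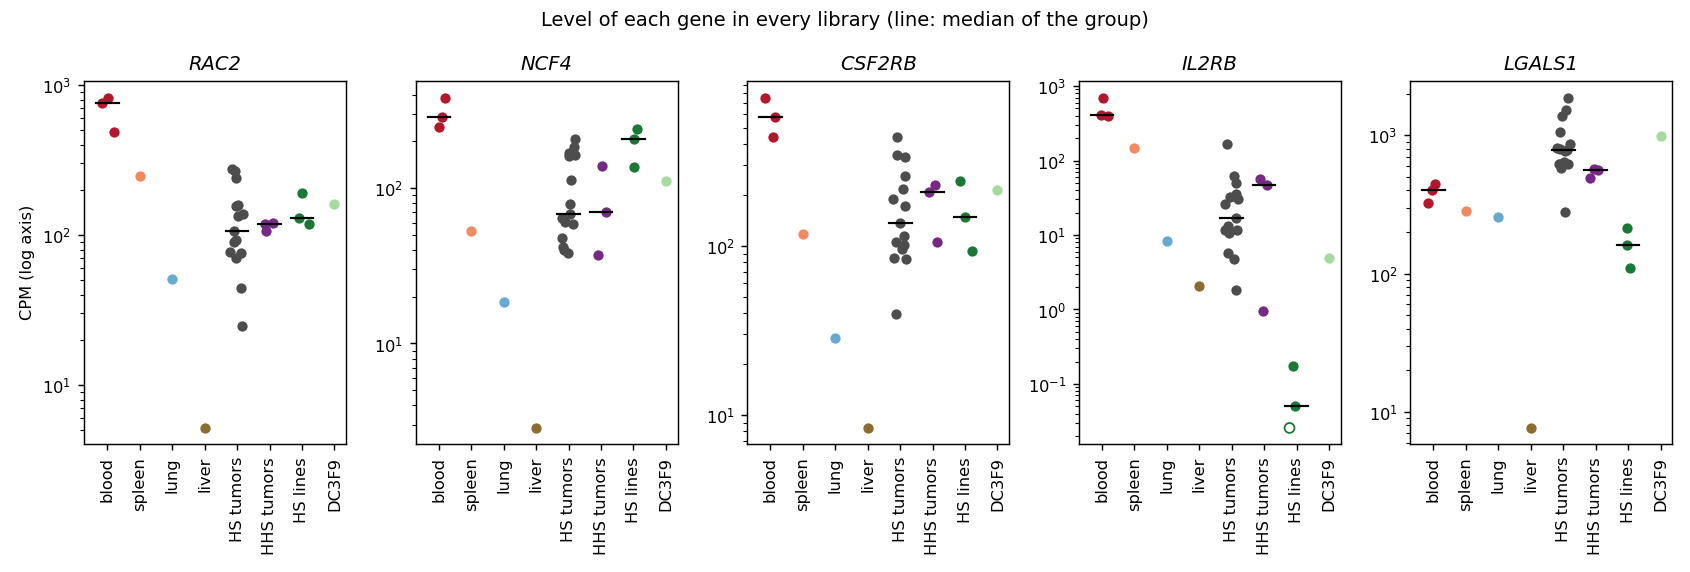
CPM of each gene in every library on a log axis, by group, with a line at the median of groups of more than 1 library. The 3 blood controls lie above all tumors for RAC2, NCF4, CSF2RB and IL2RB and below 17 of the 18 tumors for LGALS1, and the open circle is the cell line BD, which had 0 counts of IL2RB.

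The first gene of the oxidase, *RAC2*, was at 825, 488 and 758 CPM in blood controls 1, 2 and 3. It was at 248 CPM in the spleen control, 50.7 CPM in the lung control and 5.18 CPM in the liver control. In the tumors it ranged from 24.7 CPM in HS29 to 274 CPM in HS51, with a median of 113 CPM. HS51 and HS39 lay above the spleen control and HS29 and HS47 below the lung control, with the other 14 tumors between them. The level in tumors was 5.34-fold lower than in blood (log2FC −2.42, SE 0.40, edgeR adjusted p = 0.000103). The log2FC against spleen and lung was −0.02 with an SE of 0.57 (edgeR adjusted p = 0.988), and it was 1.63 without the spleen control and −0.77 at the other end of the alternatives. In a bulk tissue, fewer cells of a type and less RNA per cell cannot be told apart.

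*NCF4* had the levels 383, 288 and 246 CPM in the 3 blood controls. In spleen, lung and liver it reached 53.2, 18.6 and 2.86 CPM. The tumors ranged from 37.1 CPM in HS46 to 208 CPM in HS37, with a median of 69.1 CPM. All 18 tumors were above the lung control and 13 were above the spleen control and 5 below it. The log2FC against blood was −1.59 (SE 0.47, edgeR adjusted p = 0.0136), and it was −1.41 (edgeR adjusted p = 0.0912) without blood control 1. Against spleen and lung it was 1.72 (SE 0.75), which did not pass (edgeR adjusted p = 0.15), and it ran from 1.13 with lung left out to 2.75 with spleen left out.

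The shared cytokine receptor chain *CSF2RB* was at 755, 577 and 443 CPM in the blood controls. The organs held 117 CPM in spleen, 28.4 CPM in lung and 8.39 CPM in liver. Among tumors the level ran from 39.7 CPM in HS14 to 439 CPM in HS52, which fell just short of the lowest blood control, with a median of 155 CPM. After TMM scaling, HS52 was at 422 CPM, above blood control 3 at 386 CPM. The tumors were 3.28-fold below blood (log2FC −1.71, SE 0.43, edgeR adjusted p = 0.00422). Against spleen and lung the log2FC was 1.53 (SE 0.67, edgeR adjusted p = 0.157), with 10 of 18 tumors above the spleen control and all 18 above the lung control, and it was 0.82 without lung and 2.97 without spleen. The ligands of this receptor family were scarce. *CSF2*, the gene of GM-CSF, had a median of 0.162 CPM over the tumors and of 0 CPM over the blood controls, *IL5* had a median of 0.414 CPM, and *IL3* was too low to be tested in any comparison. Neither *CSF2* nor *IL5* was called in any comparison.

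Blood controls held 391, 412 and 700 CPM of *IL2RB*, the lymphoid receptor chain. The spleen control held 147 CPM, the lung control 8.41 CPM and the liver control 2.07 CPM. In the tumors it ran from 0.948 CPM in HS53 to 169 CPM in HS50, a 178-fold range around a median of 21.2 CPM. HS50 was the only tumor above the spleen control, and 4 tumors were below the lung control. Tumors were 14.8-fold lower than blood (log2FC −3.89, SE 0.75, edgeR adjusted p = 0.000438). The organ comparison gave a log2FC of −1.05 with an SE of 1.02 (edgeR adjusted p = 0.555), and it was 2.26 without the spleen control. The 5 T and NK cell markers *THEMIS*, *CD226*, *SAMD3*, *TCF7* and *IFNG* summed to 128 to 270 CPM in blood, 71.2 CPM in spleen, 16.4 CPM in lung, 4.61 CPM in liver and 0.959 to 48.5 CPM in the tumors, with *SAMD3* at 0 in the lung control. Of these 5 markers, 4 were called lower in tumors than in blood. *IFNG* was not called (log2FC 1.13, SE 1.33, edgeR adjusted p = 0.526), and the marker sum of the lung control was above the tumor median of 5.92 CPM, while its *IL2RB* was below the tumor median. The part of these markers in the *IL2RB* difference was not tested.

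Galectin-1 departed from the other genes. *LGALS1* was at 324, 443 and 405 CPM in the blood controls and at 283 CPM in spleen, 256 CPM in lung and 7.65 CPM in liver. In the tumors it ranged from 281 CPM in HS33 to 1879 CPM in HS29, with a median of 705 CPM. By CPM, all tumors but HS33 were above every blood control and above the spleen control, and HS33 was above lung. After TMM scaling, HS33 was also above the spleen control, at 246 against 234 CPM. The log2FC against blood was 1.19 (SE 0.49) and did not pass (edgeR adjusted p = 0.0673). Against spleen and lung it was 1.95 (SE 0.63, edgeR adjusted p = 0.0491), a 3.87-fold higher level with ranges that overlapped by CPM but not after TMM scaling. That call lay at the threshold and was lost without any 1 of the 5 controls, the adjusted p being 0.0594, 0.0591 and 0.0577 without blood control 1, 2 and 3, 0.215 without spleen and 0.483 without lung, while the log2FC stayed between 1.84 and 2.08.

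Against the 5 controls as 1 group, *IL2RB* had a log2FC of −3.30 (SE 0.71, edgeR adjusted p = 0.00173) and *RAC2* of −1.86 (SE 0.41, edgeR adjusted p = 0.00214), both past the fold but not the adjusted p cutoff of the study. *RAC2* passed without the lung control, with an adjusted p of 0.000211. *LGALS1* had a log2FC of 1.44 (SE 0.41, edgeR adjusted p = 0.0115), *CSF2RB* of −1.09 (SE 0.47, edgeR adjusted p = 0.0862) and *NCF4* of −0.96 (SE 0.51, edgeR adjusted p = 0.161). *NCF4* and *CSF2RB* had a negative log2FC against blood and a positive one, which did not pass, against spleen and lung.

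The difference between the controls themselves was tested in the same fit, so its spread was estimated mostly from the tumors. Blood held 9.93-fold more *NCF4* (log2FC 3.31, SE 0.91, edgeR adjusted p = 0.0157) and 9.45-fold more *CSF2RB* (log2FC 3.24, SE 0.83, edgeR adjusted p = 0.00983) than spleen and lung. *RAC2* was 5.27-fold higher in blood (log2FC 2.40, SE 0.77, edgeR adjusted p = 0.0392). *IL2RB* at 2.84 (SE 1.55, adjusted p = 0.238) and *LGALS1* at 0.77 (SE 0.66, adjusted p = 0.497) did not pass. Without the lung control none of the 3 passed, with adjusted p of 0.381 for *RAC2*, 0.214 for *NCF4* and 0.174 for *CSF2RB*. The log2FC was then 1.65 for *RAC2*, 2.72 for *NCF4*, 2.53 for *CSF2RB* and 1.92 for *IL2RB*, and without the spleen control it was 4.04, 4.34, 4.68 and 6.15 in that order. *RAC2* also did not pass without blood control 1, 2 or 3 (adjusted p 0.104, 0.0535 and 0.0678). The median log2FC over all genes was −0.23 here, 0.51 for tumors against blood and 0.11 for tumors against spleen and lung. Without HS51, *RAC2*, *NCF4*, *CSF2RB* and *IL2RB* were still called lower than blood, and *LGALS1* was still called higher than spleen and lung (log2FC 1.97, edgeR adjusted p = 0.0444).

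**Figure D2:**
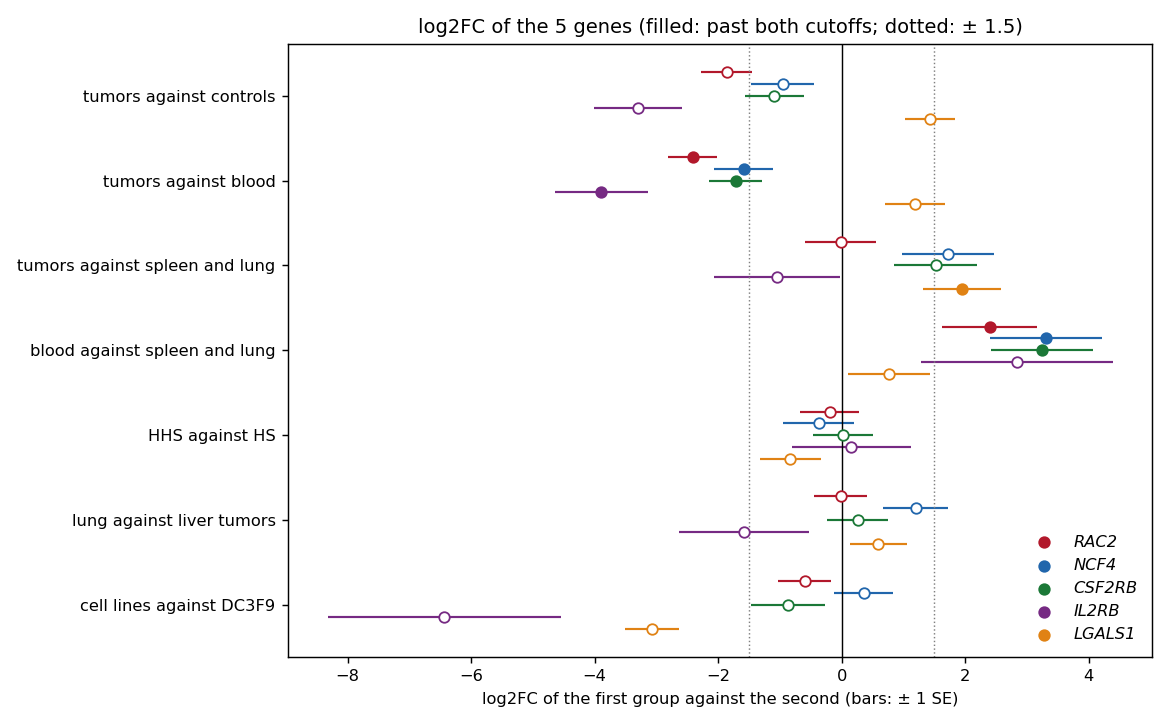
log2FC with ± 1 SE of the 5 genes in 7 comparisons, filled where both cutoffs were passed. RAC2, NCF4, CSF2RB and IL2RB lie left of 0 against blood, NCF4 and CSF2RB lie right of 0 against spleen and lung, and LGALS1 lies right of 0 in all 3 tumor comparisons with controls.

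Tumors were also set beside the control of their own organ, where each organ had 1 control library and no test was made. Among the 6 lung tumors, *NCF4* was 2.05-fold to 9.95-fold, *CSF2RB* 3.36-fold to 15.5-fold and *LGALS1* 2.23-fold to 5.44-fold the level of the lung control, so every lung tumor was above it for these 3 genes. *RAC2* was above the lung control in 5 of the 6 lung tumors by CPM and in 6 of 6 after TMM scaling. *IL2RB* was above it in 4 of 6, with HS53 at 0.113 of the control level and HS48 at 4.26 of it.

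In the spleen, both tumors had less *IL2RB* than the spleen control, at 16.7 and 32.6 CPM against 147 CPM. Both had more *LGALS1*, at 1879 and 798 CPM against 283 CPM, and more *NCF4*, at 169 and 113 CPM against 53.2 CPM. The pair split for *RAC2*, with HS29 at 24.7 CPM and HS51 at 274 CPM around the control at 248 CPM. *CSF2RB* was at 106 CPM in HS29 and 337 CPM in HS51, against 117 CPM in the control, and both tumors were above the control after TMM scaling.

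All 4 liver tumors exceeded the liver control for *RAC2*, *NCF4*, *CSF2RB* and *LGALS1*. The median ratio for *LGALS1* was 74.3 by CPM and 28.7 after TMM scaling, and for *NCF4* 15.7 and 5.03, as the liver control is the library with the TMM factor far below 1. Hepatocyte markers summed to 2.46 to 363 CPM in the liver tumors against 7608 CPM in the control, and to 107 to 1266 CPM in the lung tumors, with *FBP1* giving 92.9% of the mean sum over the tumors.

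Across the 18 tumors, *IL2RB* varied more than the rest. The SD of its log2 CPM was 1.86, at the 93.2 percentile of 14402 genes, against 0.94 for *NCF4*, 0.80 for *CSF2RB*, 0.79 for *RAC2* and 0.77 for *LGALS1* and a median of 0.82 over all genes. The highest *IL2RB* was in the liver tumor HS50 at 169 CPM, while another liver tumor, HS36, was at 1.84 CPM, and the lung tumors ran from 0.948 to 35.9 CPM. The liver and lung ranges overlapped.

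Between lung and liver tumors, *NCF4* had the smallest unadjusted p of the 5 genes. It was at 37.1, 41.8, 47.8 and 67.8 CPM in the 4 liver tumors and at 38.0, 58.98, 70.4, 161, 162 and 185 CPM in the 6 lung tumors. The ranges overlapped, as 2 lung tumors were below the highest liver tumor. The log2FC of lung against liver was 1.2 (SE 0.52, edgeR adjusted p = 0.968), with an unadjusted p of 0.0411. That comparison called 0 of 17671 genes (0%), with 907 at an unadjusted p under 0.05, while DESeq2 called 99 genes and none of these 5. The other log2FC values were −1.58 (SE 1.05) for *IL2RB*, 0.59 (SE 0.46) for *LGALS1*, 0.26 (SE 0.49) for *CSF2RB* and −0.02 (SE 0.43) for *RAC2*. For *IL2RB* it was −0.28 without the liver tumor HS50.

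The 3 HHS tumors came from lymph node (HS41), liver (HS46) and lung (HS53). In that order, *RAC2* was at 119, 107 and 121 CPM, *NCF4* at 139, 37.1 and 70.4 CPM and *CSF2RB* at 208, 230 and 106 CPM. By CPM, all of these lay inside the range of the 15 HS tumors except *NCF4* in HS46, which was the lowest of all tumors. With TMM factors from all tissue libraries, *NCF4* in HS46 was inside that range, at 36.61 CPM against 36.25 CPM in HS48. With factors from the tumors alone it was lowest, at 5.210 log2 CPM against 5.214 in HS33. *IL2RB* was at 46.9, 55.8 and 0.948 CPM, the last below every HS tumor. *LGALS1* was at 561, 492 and 571 CPM, below the HS median of 786 CPM in each. No gene of the 5 was called, and *LGALS1* had the log2FC farthest from 0, −0.83 (SE 0.49, edgeR adjusted p = 0.943). The log2FC was −0.37 (SE 0.58) for *NCF4*, −0.20 (SE 0.48) for *RAC2*, 0.16 (SE 0.96) for *IL2RB* and 0.02 (SE 0.49) for *CSF2RB*, each smaller than its SE. For *NCF4* it was −1.06 without HS41 and −0.02 without HS46. Of 19853 genes 0 (0%) were called by edgeR, with 797 at an unadjusted p under 0.05 and 1 gene, none of these 5, called by DESeq2.

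**Figure D3:**
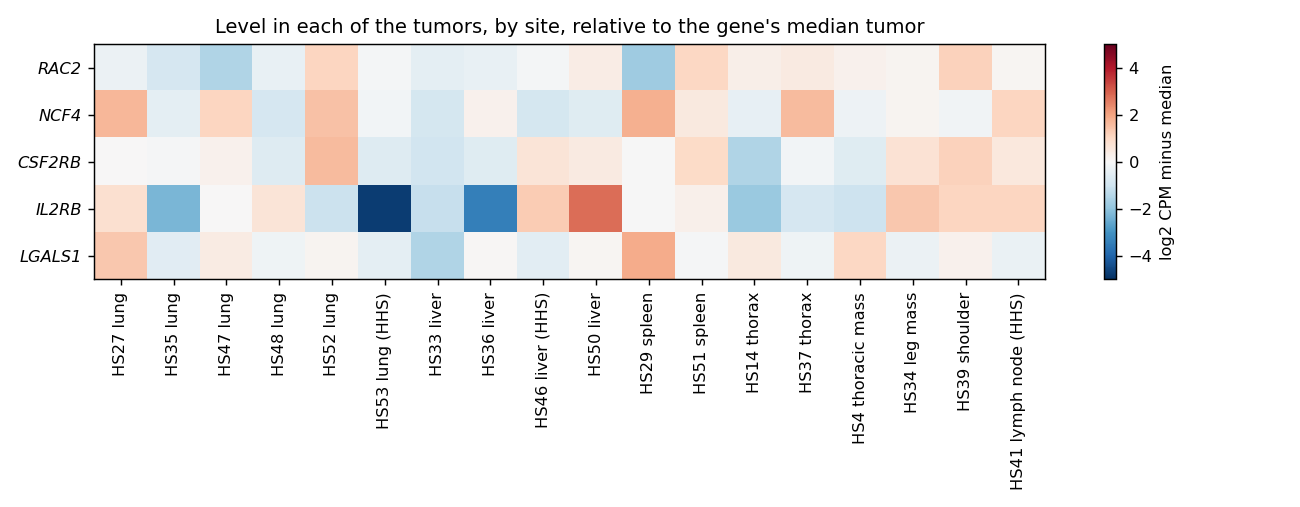
log2 CPM of each gene in each of the 18 tumors minus the median over the tumors, with tumors ordered by site and HHS marked. IL2RB spans the widest range, lowest in the lung tumor HS53 and highest in the liver tumor HS50, and HS29 combines the lowest RAC2 with the highest LGALS1.

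The tumors were also used to ask which of the 5 genes varied together. Over 10 pairs, no correlation of log2 CPM passed a Benjamini-Hochberg adjusted p under 0.05 by permutation. The r was also computed without the 2 tumors farthest from the median of the first gene named. *CSF2RB* and *IL2RB* had a Pearson r of 0.53 (permutation p = 0.023, adjusted 0.115) and a Spearman coefficient of 0.62 (permutation p = 0.00731, adjusted 0.0731), and r was 0.66 without the 2 tumors farthest from the median. *NCF4* and *LGALS1* had an r of 0.56 (permutation p = 0.0149, adjusted 0.115) and a Spearman coefficient of 0.53 (permutation p = 0.0254, adjusted 0.127). Their r fell to 0.27 without HS29 and HS27, the 2 tumors farthest from the *NCF4* median, so r depended on these tumors. Both oxidase genes, *RAC2* and *NCF4*, had an r of −0.12 (permutation p = 0.642, adjusted 0.803) and a Spearman coefficient of 0.03 (permutation p = 0.91, adjusted 0.91), and r was 0.35 without the 2 farthest tumors. The pair *RAC2* and *CSF2RB* reached an r of 0.41 (permutation p = 0.0872, adjusted 0.291) and a Spearman coefficient of 0.46 (permutation p = 0.0552, adjusted 0.184), and r was 0.61 without the farthest tumors. All tumors were sequenced on 1 flow cell.

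Marker sums were set against the genes over the same tumors, a choice made after levels had been seen and covering 10 relations. For these relations, the 2 farthest tumors were those farthest from the median of the marker sum. *IL2RB* followed the T and NK cell marker sum, with r = 0.79 (permutation p = 9e-05, adjusted 0.0009) and Spearman coefficient = 0.81 (permutation p = 0.0001, adjusted 0.001). Of the mean sum over the tumors, *CD226* gave 40.7%, *IFNG* 23.5%, *THEMIS* 19.7%, *TCF7* 16.1% and *SAMD3* 0.035%. Without the 2 farthest tumors, HS50 and HS27, r was 0.86. HS50 had the highest value of both, with 169 CPM of *IL2RB* and 48.5 CPM of markers, and HS53 had the lowest *IL2RB*, 0.948 CPM, and nearly the lowest marker sum, 0.970 CPM. HS27 and HS29 stood off the relation, with 30.5 and 16.7 CPM of *IL2RB* beside 0.959 and 1.25 CPM of markers. HS27 was thus among the tumors left out for the r of 0.86.

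*NCF4* ran against the myeloid and antigen presentation sum, with r = −0.69 (permutation p = 0.00117, adjusted 0.00585), Spearman coefficient = −0.71 (permutation p = 0.00155, adjusted 0.00775) and r = −0.75 without the 2 farthest tumors. The sum was made up mostly of MHC class II and lysozyme, *DLA-DRA* giving 58.3%, *LYZ* 19.3% and *DLA-DQA1* 15.9% of it. HS37 and HS29, with 208 and 169 CPM of *NCF4*, had the lowest sums, 2714 and 1901 CPM. HS14, with 39.8 CPM of *NCF4*, had a sum of 22110 CPM, and HS39, with 64.1 CPM, had 32490 CPM. *CSF2RB* with the T and NK cell sum (r = 0.54, permutation p = 0.0208, adjusted 0.0673) and *RAC2* with the myeloid sum (r = 0.52, permutation p = 0.0269, adjusted 0.0673, and 0.08 without the 2 farthest tumors) did not pass. *LGALS1* had an r of −0.17 and −0.38 with the T and NK cell and the myeloid sums, with adjusted permutation p of 0.575 and 0.202.

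**Figure D4:**
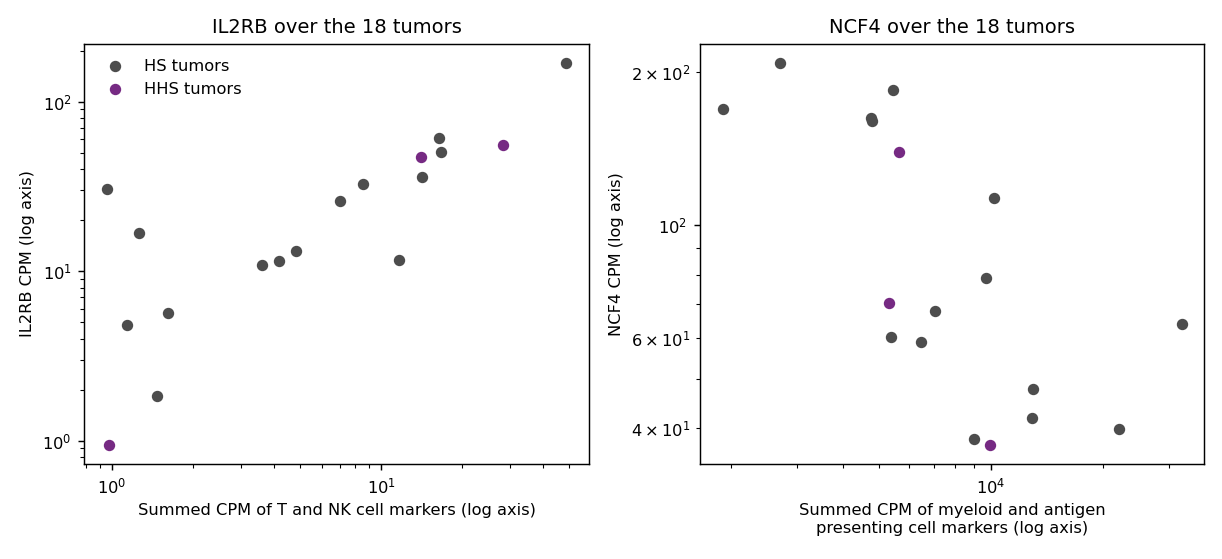
CPM of IL2RB against the summed CPM of 5 T and NK cell markers, and CPM of NCF4 against the summed CPM of 9 myeloid and antigen presenting cell markers, in the 15 HS and 3 HHS tumors, on log axes. IL2RB rises with its sum apart from HS27 and HS29 at the left, and NCF4 falls as its sum rises.

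In the cell table, the lines expressed both oxidase genes and the GM-CSF receptor chain within 2.29-fold of the level in the dendritic cells by CPM. *RAC2* was at 131, 189 and 118 CPM in BD, OD and PJ and at 160 CPM in DC3F9. *NCF4* was at 137, 207 and 241 CPM in the lines, each above the 110 CPM of DC3F9, and *CSF2RB* was at 93.4, 242 and 148 CPM against 214 CPM. By CPM, DC3F9 lay inside the range of the lines for *RAC2* and *CSF2RB*. After TMM scaling, DC3F9 was above every line for both genes. It was then at 204 CPM of *RAC2*, with the lines at 108.5 to 177 CPM. For *CSF2RB* it was at 273 CPM, with the lines at 85.2 to 226 CPM. *NCF4* in BD was then below DC3F9, at 125 against 141 CPM.

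*IL2RB* was hardly detected in the lines. BD had 0 counts, OD 23 and PJ 5, or 0.175 CPM in OD and 0.0513 CPM in PJ, against 401 counts or 4.89 CPM in DC3F9. A count of 0 in BD allows up to 0.0254 CPM (3 counts), so BD was at least 192-fold lower than DC3F9, OD was 27.96-fold lower and PJ 95.3-fold lower. Reads carried no molecular identifiers, and the limit covers counting error alone. T and NK cell markers summed to 0.359 to 0.654 CPM in the lines and 1.85 CPM in DC3F9.

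*LGALS1* was at 215, 111 and 161 CPM in BD, OD and PJ and at 987 CPM in DC3F9, so each line was 4.59-fold to 8.94-fold lower. The 3 lines also lay below the lowest tumor, HS33 at 281 CPM, although the cell table was counted apart and no test was made across tables. The methods of the study name a total RNA kit for the tumors and an mRNA kit, used at another site, for the cell libraries. Sample type and library preparation therefore cannot be told apart in this gap. In the test of lines against DC3F9, which had 1 library and whose spread was taken from the lines, *LGALS1* had a log2FC of −3.08 (SE 0.44, edgeR adjusted p = 0.0985) and *IL2RB* of −6.44 (SE 1.89, edgeR adjusted p = 0.239). The log2FC was −0.87 (SE 0.59) for *CSF2RB*, −0.60 (SE 0.43) for *RAC2* and 0.35 (SE 0.47) for *NCF4*. edgeR called 0 of 18121 genes (0%), with 2788 at an unadjusted p under 0.05. DESeq2 called 1796 genes, *LGALS1* (adjusted p = 7.85e-05) and *IL2RB* (adjusted p = 0.0132) among them, both lower in the lines. The dendritic cells had been grown in GM-CSF, a ligand of the receptor that contains the *CSF2RB* chain, and the lines had not. Culture conditions and cell origin cannot be told apart here.

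The 5 genes lie near each other. In the RefSeq annotation of the assembly UU_Cfam_GSD_1.0, which is not the build of the counts, they fall on chromosome 10 in the order *LGALS1*, *RAC2*, *IL2RB*, *CSF2RB* and *NCF4*, within a run of 21 protein coding genes in which *CSF2RB* and *NCF4* are next to each other. Of 15 other named genes of this stretch and its edge, 13 were tested. Against blood, 3 were called lower, where 8.79% of all genes were. They were *SH3BP1* (log2FC −1.57), *MFNG* (log2FC −3.31), a glycosyltransferase that acts on Notch, and *TMPRSS6* (log2FC −1.67), a membrane protease of iron control. *CDC42EP1*, a binding partner of the GTPase CDC42, was called higher (log2FC 6.16), where 15.1% of all genes were. Against spleen and lung, *LGALS2* (log2FC −3.43), *CDC42EP1* (log2FC −3.60) and the calcium binding gene *PVALB* (log2FC −8.65) were called lower, where 7.22% of all genes were, and none was called higher. The median log2FC of the 13 neighbours was 0.03 against blood and 0.48 against spleen and lung, beside 0.51 and 0.11 over all genes. *CYTH4*, next to *RAC2*, was at 443 to 605 CPM in blood and 103 to 549 CPM in the tumors, with a log2FC of −1.01 (SE 0.43, edgeR adjusted p = 0.0781).

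**Figure D5:**
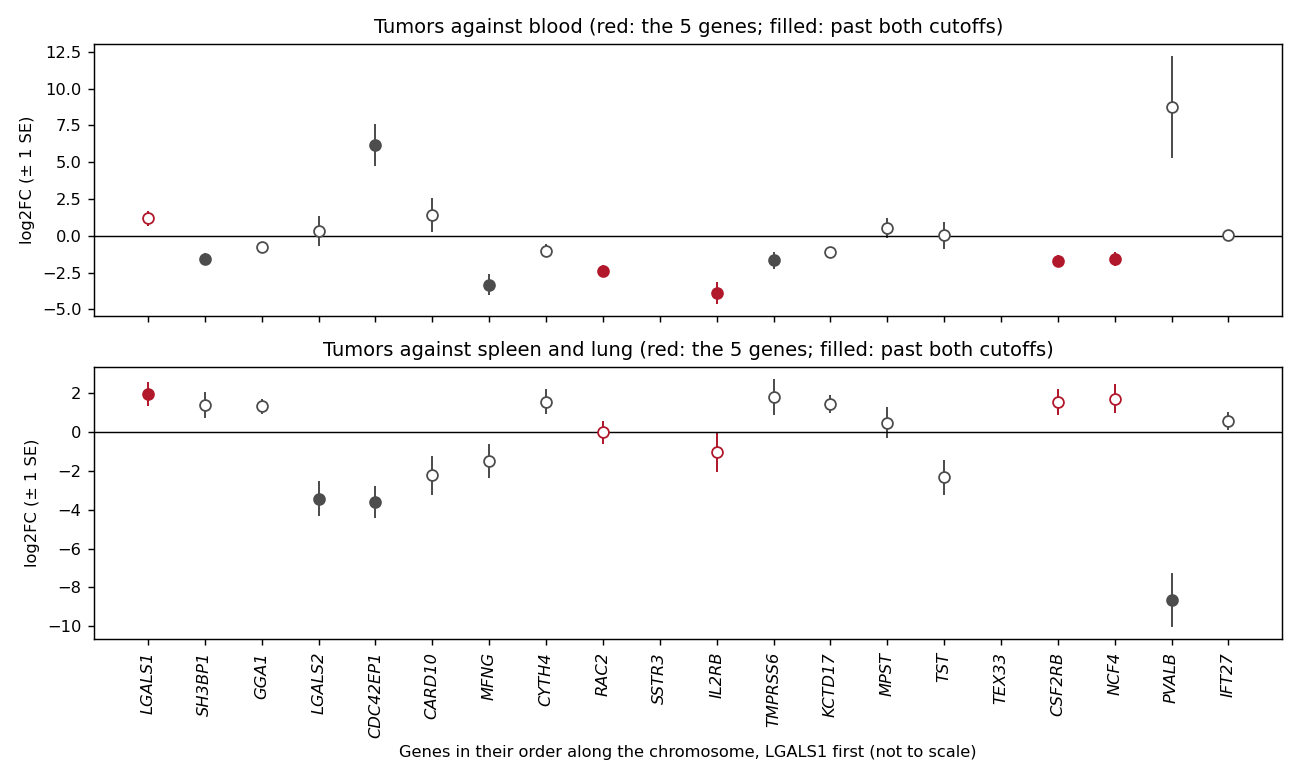
log2FC with ± 1 SE along the gene order of chromosome 10, for tumors against blood and against spleen and lung, with the 5 genes in red and filled points past both cutoffs. Neighbouring genes move in both directions in each comparison, and SSTR3 and TEX33, too low to be tested, have no point.

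Among 7 other cytokine receptors of the list, *TNFRSF11A*, which encodes the osteoclast receptor RANK, was called higher in tumors than in blood (log2FC 2.95, SE 0.78, edgeR adjusted p = 0.00616), and *IL22RA2*, a soluble decoy receptor for interleukin-22, was called lower (log2FC −5.08, SE 0.58, edgeR adjusted p = 1.28e-06). *IFNGR1*, the interferon gamma receptor chain, had a log2FC of 0.06 (SE 0.44). *IL20RA* was called lower against spleen and lung (log2FC −4.14, edgeR adjusted p = 0.0451), where it was at 17.8 CPM in lung and at 0 in spleen. The other 5 of the 7 had no call against blood.

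The superoxide genes held *SOD2*, the mitochondrial enzyme that removes superoxide, at 1433 to 3554 CPM in blood and 46.6 to 322 CPM in the tumors. The log2FC was −4.16 (SE 0.30, edgeR adjusted p = 3.39e-09) against blood and 0.05 (SE 0.45) against spleen and lung, where the controls were at 139 and 191 CPM. *NOX3*, an oxidase subunit of the inner ear, had a median of 0.0233 CPM in the tumors. The other subunits of the phagocyte oxidase are not analysed here.

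The genes whose level followed each of the 5 most closely over the 18 tumors were taken from 758 named genes. These had a mean of at least 1 log2 CPM over the tumors. Only 1126 of the 32704 identifiers had a name and the rest were not searched, so closer genes may exist among them. Some of the genes found, such as *TRIOBP* (ENSCAFG00000001480), have identifiers numbered near those of the 5 genes. For *IL2RB* they were *SYTL3* (r = 0.95), *CEP120* (r = 0.87) and *IRF1* (r = 0.85), and for *NCF4* they were *ATF4* (r = 0.80), *TRIOBP* (r = 0.77) and *POLR2F* (r = 0.76). *LGALS1* was nearest to *BLOC1S1* (r = 0.81), *ARSA* (r = 0.77) and *PYM1* (r = 0.74). *RAC2* was nearest to *CSNK1E* (r = 0.72), *ZHX2* (r = 0.69) and *CTDSP2* (r = 0.68), and *CSF2RB* to *SLC45A4* (r = 0.68), *PARVG* (r = 0.66) and *ZC3H12D* (r = 0.66). The median r over the 758 genes was between −0.05 and 0.05 for each of the 5 genes, and these values are the highest of many and carry no test.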

How the data were processed

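RNA-seq of 28 dog samples was used. The authors used cutadapt 3.7 for trimming, STAR 2.7.10a for alignment to CanFam3.1 and HTSeq 2.0.0 for counting per gene, and deposited raw counts, unnormalized and unfiltered, in a tumor table and a cell table that were tested apart. The strand option is not given in the sources used here, so overlapping genes may share reads. The labels and the methods name different library kits for the cell libraries.

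From the counts, log2FC, SE and Benjamini-Hochberg adjusted p were computed over all genes passing filterByExpr, with edgeR 4.0.16 (TMM, quasi-likelihood test) in R 4.3.3. That test gives no SE, so the SE printed is the absolute log2FC divided by the square root of the F statistic, an approximation. Tumors, blood and the organ pair shared 1 fit. DESeq2 1.42.0 was an alternative, beside other factors, filters and sample sets. Correlations between genes used log2 CPM with TMM scaling (prior count 2). Those with marker sums used log2 of plain CPM, with no prior count and no TMM scaling. Two-sided permutation tests (100000 resamples, Python 3.11.15, scipy 1.17.1) were made for gene pairs and marker sums. The scripts were tested on simulated data. Samples were grouped by their labels, and p-values measure the spread between these samples. In the shared fit, each gene had 1 estimate of spread, which came mostly from the tumors. It was used for every comparison of that fit, also for blood against spleen and lung, which holds no tumor. Spleen and lung had 1 library each and were taken as 1 group, so the spread between replicates of an organ was not measured.

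The genes and lists were chosen with earlier results of these data known. Text names listed genes that were called or had an extreme log2FC, with *IFNGR1*, *CYTH4* and *NOX3* added after their values were seen. It also names the 3 genes most like each of the 5 among those with a name. Of the identifiers, 1126 had a name. One of the gene lists is not reported here.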

Additional observations from a re-analysis of the deposited data

Results flagged for a closer look

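The lung tumors, the liver tumors and the 5 controls were each examined for a far sample in each of the 5 genes, 15 sets in all. By Dixon's criterion on CPM, 1 sample stood far from the others. The criterion assumes normal values, so how often chance alone flags such sets of CPM is not known here. The flagged value was *CSF2RB* at 439 CPM in HS52 among the 6 lung tumors, where the other 5 lay between 95.4 and 190 CPM and the gap was 0.723 of the whole range. On log2 CPM with TMM scaling, HS52 was at 8.78 and the other 5 between 6.54 and 7.41. The criterion was not applied on that scale. HS52 also had the highest *RAC2* (239 CPM) and *NCF4* (185 CPM) of the lung tumors.

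The log2FC of tumors differed between the blood and the organ controls for 3 genes by the test of blood against spleen and lung, with log2FC of 2.40 for *RAC2*, 3.31 for *NCF4* and 3.24 for *CSF2RB* (edgeR adjusted p 0.0392, 0.0157 and 0.00983). These calls depended on single controls. Without lung, which leaves spleen alone, the log2FC was 1.65, 2.72 and 2.53 in that order. *RAC2* did not pass without blood control 1, 2 or 3 (edgeR adjusted p 0.104, 0.0535 and 0.0678). Tissue, breed and flow cell differ together between these controls and cannot be told apart.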

How the results depend on the processing

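Against controls (539 genes, 0 of the 5), DESeq2 called 1721 genes and 2 of the 5, and an adjusted p under 0.05 called 3457 and 2. Leaving out 1 control gave 222 to 581 genes and 0 to 1 of the 5. Against blood (5237 genes), leaving out 1 control gave 3315 to 5262 genes and 3 to 4 of the 5. Against spleen and lung (2047 genes, 1 of the 5), leaving out 1 control gave 290 to 1988 genes and 0 of the 5, other size factors and no filter on low counts each gave 0 of the 5, and adding the liver control gave 3664 genes and 3 of the 5 (*NCF4*, *CSF2RB* and *LGALS1*). There *RAC2* reversed to a log2FC of 0.50 with the liver control, 0.006 with no filter and 1.63 without spleen (range without 1 control −0.77 to 1.63), and *IL2RB* to 2.26 without spleen (range −1.97 to 2.26). Blood against spleen and lung (2858 genes, 3 of the 5) gave 4453 genes by DESeq2, 4581 with the liver control, and 1211 to 2436 genes and 0 to 3 of the 5 without 1 control.

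HHS against HS gave 4 genes with no filter and 1 by DESeq2. There the log2FC of *CSF2RB* ranged from −0.20 to 0.33 and that of *IL2RB* from −0.37 to 0.73 without 1 HHS tumor, reversing without HS41 or HS46. In lung and liver tumors only, *CSF2RB* reversed to −0.079, *IL2RB* to −0.32 and *RAC2* to 0.029, and without HS37 *CSF2RB* reversed to −0.001. Lung against liver gave 99 genes by DESeq2, and *RAC2* ranged from −0.15 to 0.15 without 1 liver tumor, reversing without HS50. Lines against DC3F9 gave 28 genes with no filter and 1796 genes and 2 of the 5 by DESeq2. The r of *CSF2RB* and *LGALS1* reversed to −0.01 on CPM of library totals. Apart from the steps that change the samples or genes tested, the cause was not tested. No paired analysis was possible because replicate numbers follow accession order and name no shared animal. Single control libraries of spleen and lung and 1 library of DC3F9 limit the comparisons with them, and only *IL2RB* in the lines lay near the limit of depth.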
